A study of Homo sapiens with 6 samples.

Results

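The comparison described here is the SI column against the NC column of the expression table that the authors deposited with 1 value per group. The column names match the groups of the study, K1 cells transfected with an siRNA against NEAT1_2 (SI) or with a negative control siRNA (NC). Beyond these names, the origin of the columns is not given. Genes were taken where the identifier was an Ensembl gene and both columns held an FPKM of at least 1 (fragment count scaled for gene length and sequencing depth). This gave 10209 genes of the 19684 Ensembl genes and 20322 rows in the table. The rule was set on the level in each column, but it is not independent of the ratio. It left out 707 genes that reached 1 in NC alone and 126 that reached 1 in SI alone. Each gene had exactly 1 value per group and no replicate, so that no test was possible. Every difference below compares these values and carries no estimate of the spread between cultures. Where a gene is followed by a pair of values, these are its FPKM in the NC and then in the SI column, and every ratio is the log2 of SI over NC.

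K1 is a human papillary thyroid carcinoma cell line, and the labels give this line for both groups, with the siRNA as the difference between them. NEAT1_2 is the long transcript of the NEAT1 gene, the RNA scaffold of nuclear bodies called paraspeckles, and it was not analysed here, so that the knockdown was not checked in these columns. The question of the study was which mRNAs depend on NEAT1_2 in this cancer. The deposited counts, read here as means per group, summed over genes to 17678761 for NC and 19579897 for SI. The 10209 genes held 98.9% and 99.3% of these sums.

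The group values stood apart from the 6 libraries that carry the same labels. Of the 10209 genes, 12.9% had an NC group FPKM inside the range of the 3 NC libraries and 20.7% had an SI group FPKM inside the range of the 3 si-NEAT1_2 libraries. TGM2, for example, was at 1008 in the NC group column and between 90.4 and 108 in the NC libraries. In the SI group column it was at 336, and in the si-NEAT1_2 libraries between 60.7 and 114. The ranges of the NC and si-NEAT1_2 libraries thus overlapped for TGM2, unlike the group values. Across genes, the Spearman correlation was 0.937 between the group columns, 0.794 to 0.852 between group columns and libraries and 0.936 to 0.991 among libraries, where genes are not independent. Which cells or libraries the group columns were made from is not given in the sources used here, and the library values entered nothing below.

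The cell type was checked against its markers. Of 10 thyroid follicular markers, PAX8 and FOXE1, transcription factors of the thyroid, passed the filter, at 329.99 and 157 and at 11.2 and 4.79. TG, TSHR, SLC5A5 and NKX2-1 were at or below an FPKM of 0.317 in both columns, so that these thyroid genes were near 0. The simple epithelial keratins KRT8 (511 and 301) and KRT18 (258 and 179) were present, whereas CDH1 and EPCAM were at or below 0.147. Among 7 leukocyte markers CD68 and CD14 passed the filter, and PTPRC, CD3E, MS4A1 and LYZ were at or below 0.0233. None of the 5 endothelial and 3 erythroid markers reached an FPKM of 1 in both columns, and of 7 fibroblast markers COL1A1 alone did.

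Several regulatory circuits that the lists below follow are well known. NF-kB dimers such as p65 (RELA) are held in the cytoplasm by IkB proteins and, once released, switch on chemokines, cytokines and their own inhibitors. ATF4 switches on amino acid synthesis and transport genes when amino acids are short or the endoplasmic reticulum is stressed, SREBP2 switches on the cholesterol pathway, and heat shock factor switches on cytosolic chaperones. Genes of mitosis are held back outside G2 and M phase by the DREAM complex through promoter elements called CHR.

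Promoter sequences of the members that carry these differences are shown first, for short elements that are known in genes of these lists. The windows were read from RefSeq promoters (250 bases before to 50 bases after the start, GRCh38.p14), run 5′ to 3′ along the gene, span 30 bases and carry the motif in capitals. The NF-kB element GGAATTTCC was found on either strand in 5 of the 16 NF-kB target genes that had a promoter in the table, against 0.461% of all 35116 promoters. A gene was counted if any of its promoters held the element, whereas the share of all promoters counts each promoter, here and below. All 5 genes had a higher value in the SI column, as had 17 of the 19 NF-kB targets with or without the element. The direction is thus that of the list and says nothing about the element.
CXCL8, chr4:73740468-73740497, plus strand: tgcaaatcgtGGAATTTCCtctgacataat
CXCL1, chr4:73869305-73869334, plus strand: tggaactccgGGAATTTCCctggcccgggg
CXCL2, chr4:74099253-74099282, minus strand: tggagctccgGGAATTTCCctggcccggga
CXCL3, chr4:74038748-74038777, minus strand: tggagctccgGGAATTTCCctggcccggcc
ICAM1, chr19:10270924-10270953, plus strand, motif read on the opposite strand: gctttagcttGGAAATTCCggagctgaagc

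The CHR element TTTGAA was found on either strand in 25 of 34 mitosis genes with a promoter, against 15.2% of all promoters. Of these 25 genes 24 had a lower value in the SI column, as had 39 of all 40 mitosis genes, so that this direction too is that of the list. Examples with the element upstream of the start are shown.
CCNB2, chr15:59105105-59105134, plus strand: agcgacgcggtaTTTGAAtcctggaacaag
CENPA, chr2:26786026-26786055, plus strand: cggagcgagcgaTTTGAAcgcgagcggcgc
KIF23, chr15:69414282-69414311, plus strand: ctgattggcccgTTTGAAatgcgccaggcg
PLK1, chr16:23678848-23678877, plus strand: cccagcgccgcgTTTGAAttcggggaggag

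The amino acid response element TGATGNAA was found in 5 of 32 genes of the ATF4 and unfolded protein response list, against 3.62% of all promoters, and the endoplasmic reticulum stress element (CCAAT and CCACG, 9 bases apart) in 5 other genes of that list, against 0.0769%. Both sets of genes were split in direction, with 4 of the 5 genes holding the first element lower in SI (ATF3 was higher) and 3 of the 5 holding the second lower (HSPA5 and CRELD2 were higher). In the whole list 19 of 35 genes were lower. A gene of each kind is shown, ASNS from the ATF4 arm and HSPA5 from the chaperones. A match is a property of the letters and measures no binding.
ASNS, chr7:97872458-97872487, minus strand: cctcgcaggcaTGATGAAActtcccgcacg
HSPA5, chr9:125241385-125241414, minus strand: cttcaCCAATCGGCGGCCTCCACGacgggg

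Over all 10209 genes, the log2 ratio of SI over NC had a median of -0.18 and an interquartile range of 0.781, from -0.59 to 0.19. SI was at least 2-fold above NC for 312 genes (3.06%) and at least 2-fold below NC for 1057 genes (10.4%), and 62.96% of the genes lay below 0. The ratio stayed within 1.5-fold for 6669 genes. Past 4-fold lay 44 genes in the higher and 119 in the lower direction. The balance between the directions depended on the scale: after scaling by TMM, which moved the median of all genes by 0.261, 649 genes were higher and 579 lower, and after centring the median at 0, 504 were higher and 697 lower. Every list median below is on the unscaled log2 ratio and is to be read against the -0.18 of all genes. Each count past 2-fold is likewise to be read against the 3.06% higher and 10.4% lower of all genes. In lists of few genes 1 gene more or less moves the share widely.

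**Figure D1:**
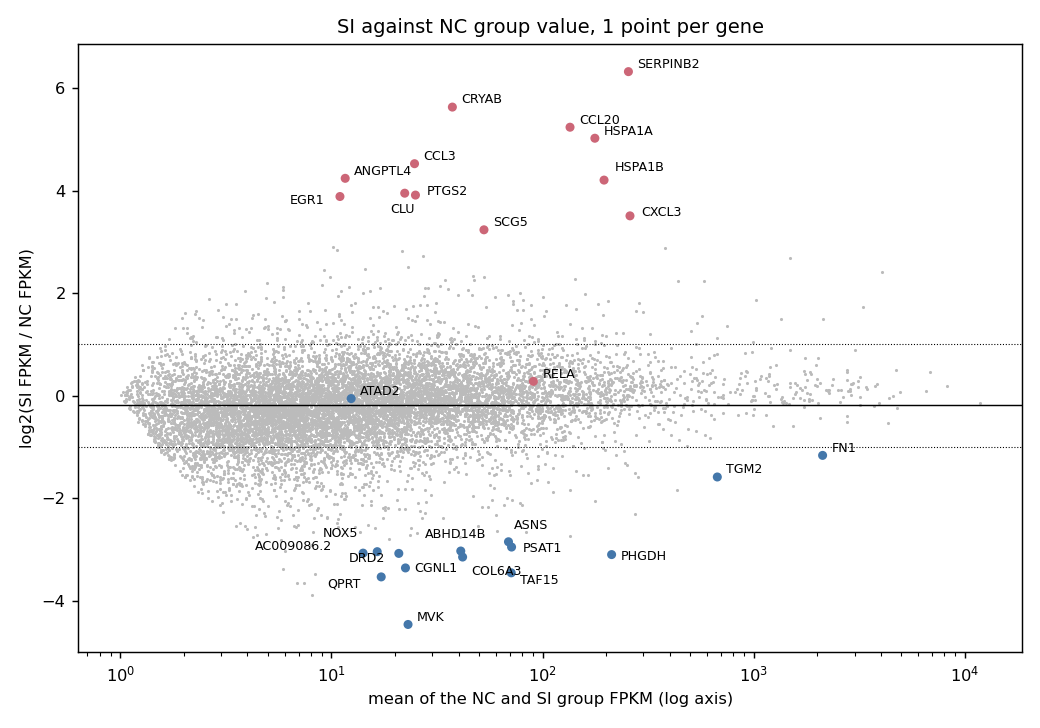
Log2 ratio of the SI over the NC group FPKM (y axis) against the mean of both FPKM values (x axis, log scale), 1 grey point per gene, Y-linked genes left out. The solid line is the median of all genes at -0.18, the dotted lines mark 2-fold, and the labelled points are the 12 highest and 12 lowest ratios at a mean FPKM of at least 10 and 4 of the genes that the study names, with SERPINB2 at 6.32 and MVK at -4.46.

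The ratio moved with the level of the gene. The median was -0.34 for genes with a mean FPKM of 1 to 3 (n = 1428), -0.33 from 3 to 10 (n = 3328), -0.15 from 10 to 30 (n = 2758), -0.04 from 30 to 100 (n = 1736), 0.07 from 100 to 300 (n = 664) and 0.12 from 300 upwards (n = 295). Low genes were thus lower in SI more often than high genes. The interquartile range narrowed from 0.777 in the lowest bin to 0.471 in the highest. The median counting standard error was 0.182 and 0.0164 in these bins. It was computed from the group mean counts and is therefore wider than the error of the summed counts. The spread of the ratios exceeded the counting error in all 6 bins. Genes at least 2-fold lower made up 13.7% of the lowest bin, 14.8% of the next and 1.02% of the highest, and genes at least 2-fold higher rose in share from 1.54% to 5.76%. The rule itself bounds the ratio of genes close to an FPKM of 1, because a gene with 1 column below 1 leaves the comparison. The median of a list therefore depends in part on the level of its members. Measured from the median of all genes it was 1.82 for NF-kB targets, 0.79 for glycolytic genes and 0.26 for cytosolic ribosomal proteins. Measured from the median of each gene's own bin it was 1.57, 0.49 and -0.03.

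**Figure D2:**
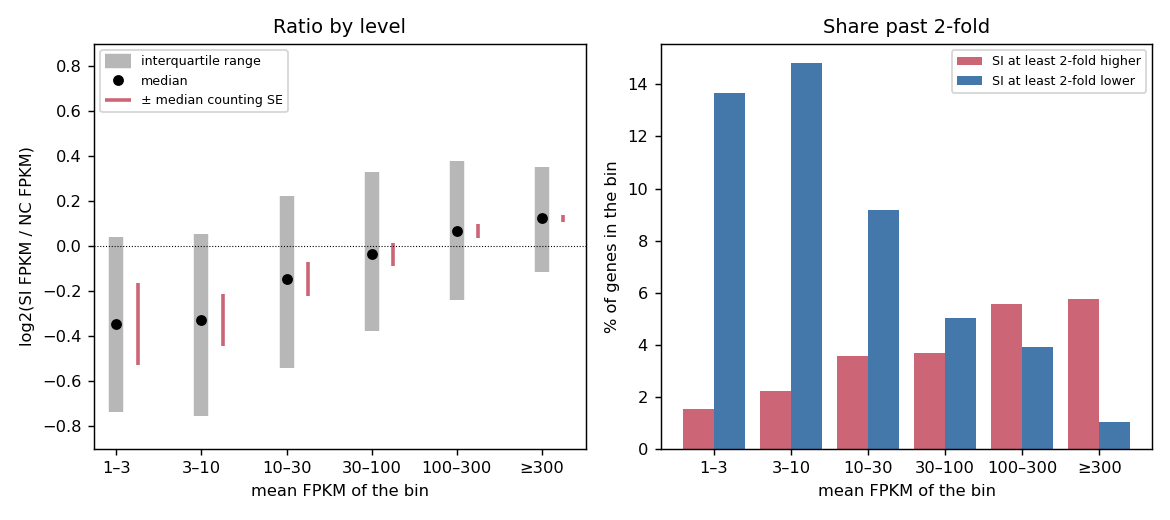
Left, median log2 ratio of SI over NC (black points), interquartile range (grey bars) and the median counting standard error on either side of the median (red lines) in 6 bins of mean FPKM. Right, share of genes at least 2-fold higher (red) or lower (blue) in SI in the same bins, where the lower share drops from 14.8% to 1.02% and the higher share climbs from 1.54% to 5.76%.

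Transcript length, GC content and the nuclear chromosomes showed smaller differences in the median than the level did. By the length of the longest coding transcript, the median ratio went from -0.09 in the shortest quartile to -0.26 in the longest, and by its GC content from -0.24 in the quartile poorest in GC to -0.10 in the richest. The spread was widest in the GC-rich quartile, where 4.74% of genes were at least 2-fold higher and 11.99% at least 2-fold lower. Among chromosomes, 19 had the highest nuclear median (0.02, n = 640) and 18 the lowest (-0.28, n = 129). The 13 genes encoded by mitochondrial DNA had a median of 0.24.

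The 12 highest ratios among genes with a mean FPKM of at least 10 were those of SERPINB2, CRYAB, CCL20, HSPA1A, CCL3, ANGPTL4, HSPA1B, CLU, PTGS2, EGR1, CXCL3 and SCG5. SERPINB2, which encodes the plasminogen activator inhibitor PAI-2, had an FPKM of 6.31 in NC and 504 in SI (log2 ratio 6.32). CRYAB, a small heat shock protein, went from 1.48 to 73.3 and CCL20, a chemokine for cells bearing CCR6, from 6.98 to 263. PTGS2, the inducible cyclooxygenase, was at 3.12 and 46.9. ANGPTL4, an inhibitor of lipoprotein lipase, was at 1.17 and 22.1, CLU, the extracellular chaperone clusterin, at 2.71 and 41.8, and SCG5, a secretory granule chaperone, at 10.1 and 95.4. The set held inflammatory mediators, chaperones and protease or lipase inhibitors, with EGR1 (1.39 and 20.6) outside these classes. CCL3 has near-identical copies in the genome, as do HSPA1A and HSPA1B, so that their reads can be split between copies and the single values are uncertain.

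The 12 lowest ratios were those of MVK, QPRT, TAF15, CGNL1, COL6A3, PHGDH, DRD2, AC009086.2, NOX5, ABHD14B, PSAT1 and ASNS. MVK, mevalonate kinase of the cholesterol pathway, had an FPKM of 44.1 in NC and 2.003 in SI (log2 ratio -4.46, the lowest of all 10209 genes). QPRT, an enzyme of NAD synthesis from quinolinate, was at 31.7 and 2.74. It lies on chromosome 16 of GRCh38 from 29679008 to 29698699 and overlaps AC009086.2 (29663279 to 29695144), which was at 25.2 and 3.01, so that these entries may share reads. CGNL1, a cell junction protein, was at 40.9 and 3.98, and DRD2, a dopamine receptor, at 37.3 and 4.42. NOX5, a calcium-activated NADPH oxidase, was at 29.4 and 3.57, and ABHD14B, an alpha/beta hydrolase, at 73.02 and 8.95. All 24 genes of both ends stayed past 2-fold under the other scalings and filters that kept them.

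Among the genes that the study names, 4 were taken, and they lay on different sides. TGM2 (ENSG00000198959, chromosome 20, 38127387 to 38166578), transglutaminase 2, which cross-links proteins and binds fibronectin, had an FPKM of 1008 in NC and 336 in SI, a log2 ratio of -1.59. The mean counts per group were 64212 and 25178, and the ratio of count shares was -1.50 with a 95% counting interval of -1.52 to -1.48. FN1 (ENSG00000115414, chromosome 2, 215360440 to 215436172), fibronectin, was at 2929 and 1307 (-1.16, and -1.24 from count shares with a counting interval of -1.25 to -1.23). RELA (ENSG00000173039, chromosome 11, 65653596 to 65663094), the p65 subunit of NF-kB, was at 81.8 and 99.2 (0.28), and ATAD2, a chromatin-binding ATPase, at 12.7 and 12.2 (-0.06). TGM2 and FN1 were thus past 2-fold and RELA and ATAD2 were not. These intervals cover counting error only, and they are too wide for it because they take a group mean count as a total.

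The 10 genes with the highest mean FPKM were RPS2, GAPDH, LGALS1, ACTG1, TMSB10, FTH1, ACTB, MT2A, MT-CO1 and RPL41, and all of them stayed within 1.5-fold. RPS2 was at 12271 and 11178 and GAPDH at 7651 and 8721. The widest differences among them were RPL41 (-0.54) and ACTB (0.50). RPS2, FTH1 and RPL41 have many processed copies, so reads can be shared.

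**Figure D3:**
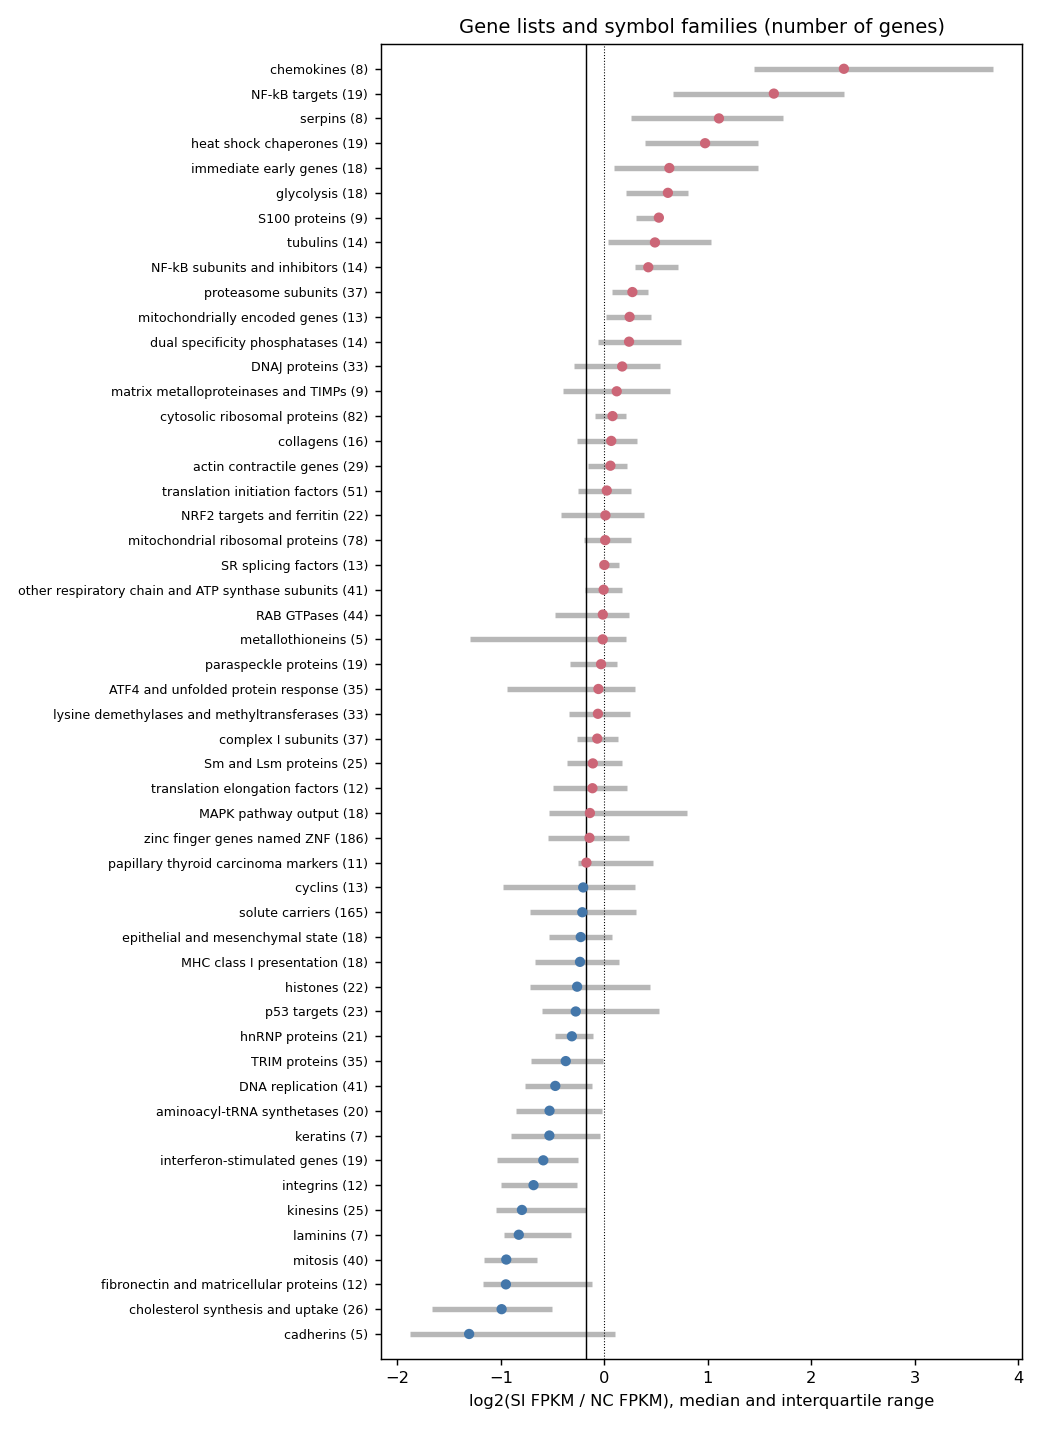
Median log2 ratio of SI over NC (points) and interquartile range (grey bars) of each gene list and symbol family with at least 5 genes, with the number of genes in brackets. The solid line is the median of all genes at -0.18 and the dotted line 0; red points lie above the solid line and blue points below it, from chemokines at 2.32 to cadherins at -1.31 (0.109 with an FPKM of at least 5).

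NF-kB targets were higher in SI. Of 20 listed targets 19 passed the filter, 12 of them were at least 2-fold higher and 2 at least 2-fold lower, and the median log2 ratio was 1.64 against -0.18 for all genes. CXCL8, the neutrophil chemokine interleukin-8, was at 1289 and 6827, and CXCL1, which signals through the same receptor CXCR2, at 1532 and 5067. With CXCL2 (205 and 958) and CXCL3 (41.96 and 477), the 4 chemokines summed to an FPKM of 3068 in NC and 13329 in SI, a ratio of 4.34. IL6, the acute phase cytokine, was at 704 and 1978, IL1A at 73.8 and 195, and CSF2, the growth factor GM-CSF, at 88.5 and 320.1. SOD2, the mitochondrial superoxide dismutase, was at 154 and 724, BCL2A1, a survival protein, at 145 and 453, and ICAM1, the leukocyte adhesion receptor, at 6.95 and 39.4. These genes moved in 1 direction over a wide range of levels. Not all members followed. IL1B (1499.6 and 2512), BIRC2 (21.4 and 31.9), BIRC3 (5.07 and 7.13), LIF (169 and 199.5) and MMP9 (1.99 and 3.65) were higher by less than 2-fold. Only CCL2 and VCAM1 lay below 0 among the 19. CCL2, the monocyte chemokine MCP-1, was at 40.8 and 6.78 (-2.59) and VCAM1, an adhesion receptor, at 34.2 and 12.9 (-1.41). The remaining member TRAF1, an adaptor of TNF receptors, was below 1 in NC and left the comparison, at 0.597 and 14.2. The list was chosen with earlier results of these data known. The deposited annotation holds a wider NF-kappa B signaling pathway. Its median was 0.11 over 61 genes, with 8 at least 2-fold higher and 5 lower. TNF signaling had a median of 0.02 over 86 genes, with 12 at least 2-fold higher and 6 lower.

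The subunits and regulators of NF-kB differed less than its targets. The median over 14 genes was 0.42, with 1 gene at least 2-fold higher and none lower. Among the subunits RELB was at 46.3 and 60.2, NFKB2 at 71.2 and 89.7, and NFKB1 at 30.2 and 27.6. Among the inhibitors NFKBIA, which encodes IkB alpha, was at 118 and 160.4, NFKBIB at 26.9 and 68.8 (1.36), NFKBIE at 5.40 and 9.03, and NFKBIZ at 26.1 and 42.9. TNFAIP3 (A20), which ends the signal by editing ubiquitin chains, was at 14.9 and 24.3 and its partner TNIP1 at 459.9 and 769. The kinase subunits CHUK (3.65 and 4.85), IKBKB (7.45 and 5.75) and IKBKG (28.7 and 42.01) went in both directions. The subunit REL, at 1.74 and 0.857, did not pass the filter. BCL3, an atypical IkB protein, had the lowest ratio (-0.96, 47.4 and 24.3).

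**Figure D4:**
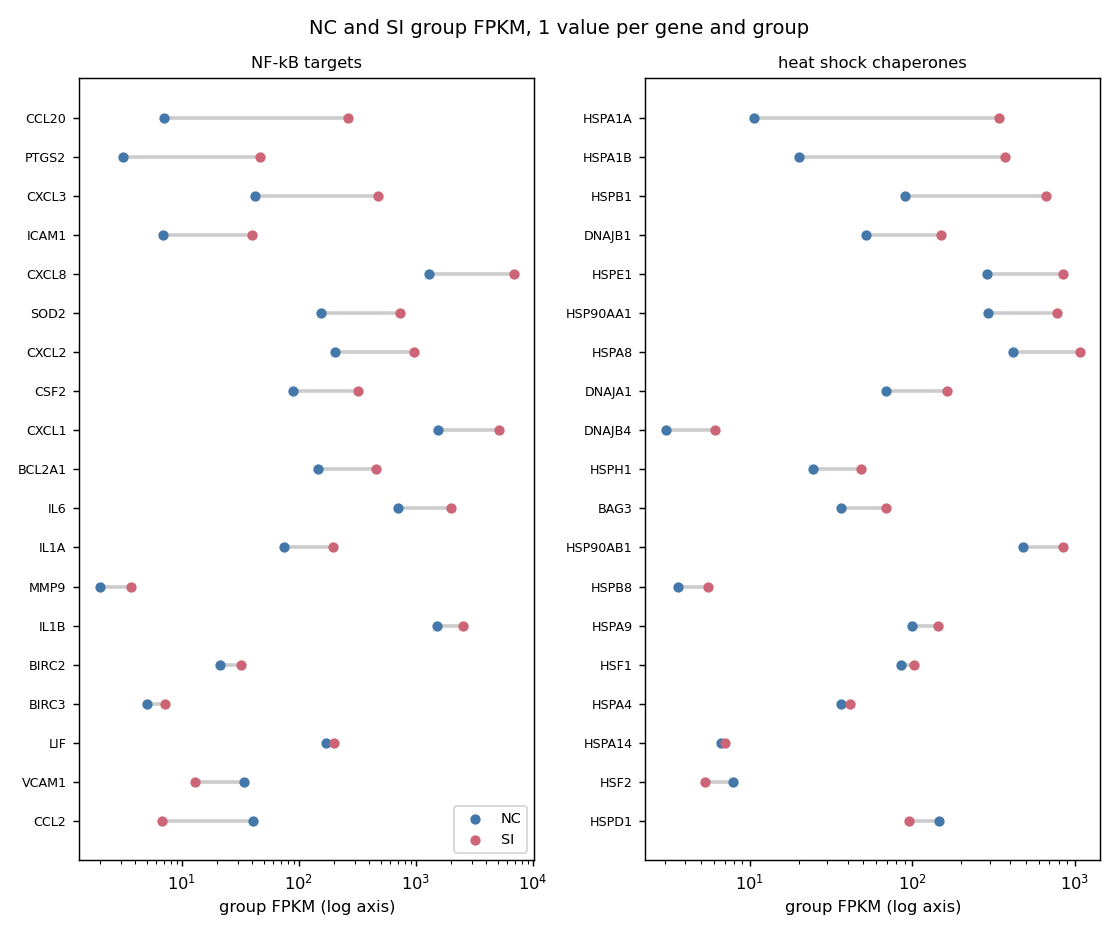
FPKM of each NF-kB target (left) and heat shock gene (right) in the NC column (blue) and the SI column (red) on a log axis, ordered by ratio. Red points lie to the right of blue points for 17 of 19 NF-kB targets and 17 of 19 heat shock genes.

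The chemokine family, taken by symbol, gave 8 genes past the filter of 39, with 6 at least 2-fold higher, 1 at least 2-fold lower and a median of 2.32. Of these, CCL20, CXCL1, CXCL2, CXCL3, CXCL8 and CCL2 are also in the list of NF-kB targets, so that the family is not a separate result. CCL3, a chemokine for monocytes, was at 2.06 and 47.4 and CXCL6 at 5.52 and 8.34. Among 8 serpins, inhibitors of serine proteases, 5 were at least 2-fold higher and none lower (median 1.11). SERPINA1, alpha-1-antitrypsin, was at 134 and 422, SERPINE2 at 11.3 and 43.4, SERPINH1, the collagen chaperone HSP47, at 76.3 and 169.97, and SERPINB8 at 6.09 and 12.7. SERPINB1 (6.25 and 3.62) and SERPINB6 (103 and 59.3) were lower.

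Heat shock chaperones were higher, with a median of 0.97 over 19 genes against -0.18 for all genes, 9 of them at least 2-fold higher and none 2-fold lower. HSPA1A and HSPA1B, near-identical genes of inducible HSP70, summed to an FPKM of 30.7 in NC and 714 in SI. The small chaperone HSPB1 (HSP27) was at 90.1 and 666, the constitutive HSP70 gene HSPA8 at 419 and 1077, and the HSP90 genes HSP90AA1 and HSP90AB1 at 294 and 784 and at 482 and 853. DNAJB1, an HSP40 co-chaperone, was at 51.6 and 151. The transcription factor HSF1 itself was at 85.8 and 102. The mitochondrial chaperonin went in both directions: HSPE1 (HSP10) was at 289 and 843 and its partner HSPD1 (HSP60) at 146 and 95.1. These genes lie on opposite strands of chromosome 2 and overlap in the annotation, so that reads in the overlap may be shared.

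Immediate early genes, which respond to growth factors and stress within minutes, had a median of 0.63 over 18 genes, 7 at least 2-fold higher and none lower. EGR1 was at 1.39 and 20.6, FOS at 2.17 and 6.20, and IER3, an early response survival gene, at 442 and 1605. FOSL1, an abundant AP-1 gene, was at 606 and 576, and JUN was at 57.9 and 60.95. Outputs of the MAPK pathway split instead, with 4 of 18 at least 2-fold higher, 1 lower and a median of -0.14 that was above 0 after TMM scaling (0.27) and after centring (0.04). The higher side held EGR1, IER3, the phosphatase DUSP5 (23.1 and 49.4) and SPRED3 (3.45 and 12.1), an inhibitor of the pathway, whereas the inhibitors SPRED1 (7.32 and 4.70) and SPRY2 (43.3 and 35.1) lay below 0 with the ETS factors ETV1 (8.80 and 2.58) and ETV5 (32.7 and 16.6).

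Listed glycolytic genes and glucose transporters were mostly higher by less than 2-fold. The median over these 18 genes was 0.61 against -0.18 for all genes, with 2 at least 2-fold higher, none lower and 17 above 0. HK2, the inducible hexokinase, was at 3.40 and 10.7, ENO2 at 26.4 and 55.7, PGK1 at 188 and 364, LDHA at 702 and 1263 and the glucose transporter SLC2A1 at 33.2 and 58.2. GAPDH (0.19) and PKM (0.12, 2477 and 2691) differed little, and LDHB (539 and 476) was the one gene below 0. The wider pathway of glycolysis and gluconeogenesis, as the table itself annotates it, had a median of -0.14 over 41 genes, near that of all genes, with 2 at least 2-fold higher and 8 lower.

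Tubulins and S100 proteins, calcium-binding proteins of the EF-hand type, also lay above the median of all genes. Of 14 tubulins 4 were at least 2-fold higher and 2 at least 2-fold lower (median 0.49), with TUBB3 at 63.7 and 253, TUBB2A at 18.9 and 74.1 and the abundant TUBA1B at 1593 and 1963. Of 9 S100 genes 2 were at least 2-fold higher and 1 at least 2-fold lower (median 0.53). S100A6 was at 2473 and 3053, S100A16 at 645 and 1338, and S100A1 at 9.49 and 3.07.

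TGM2 was the one transglutaminase of 9 past the filter. TGM1 was at 0.493 and 0.170, and the other members were at or below 0.0833 in both columns. The matrix genes around it were mostly lower. Of 12 fibronectin and matricellular genes 6 were at least 2-fold lower, none was higher by 2-fold and the median was -0.95. TGFBI, a secreted adhesion protein, was at 361 and 142, EFEMP1 (fibulin-3) at 29.3 and 6.56, CTGF at 58.4 and 25.2, FBN1 (fibrillin-1) at 6.55 and 3, and SPP1 (osteopontin) at 2.27 and 1.05. CYR61 (CCN1) and SPARC differed by less than 0.02 on the log2 scale, at 210.3 and 210.1 and at 333 and 331, and TNC (tenascin C) was the one gene above 0, at 53.8 and 76.2.

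Laminins, integrins and cadherins lay below the median of all genes, and collagens and the matrix metalloproteinases with their TIMP inhibitors above it. Laminins had a median of -0.83 with all 7 genes below 0 and 2 past 2-fold, LAMA3 (5.70 and 1.73) and LAMB1 (28.6 and 13.6), while the abundant LAMB3 was at 178 and 141. Integrins had a median of -0.68, with 3 of 12 at least 2-fold lower. ITGB3, the beta chain of the vitronectin receptor, was at 43.5 and 9.10, its alpha partner ITGAV at 10.9 and 10.97, and ITGA5, the alpha chain of the fibronectin receptor, at 70.2 and 122. Collagens had a median of 0.07 over 16 genes. Collagen VI, built from 3 chains, was uneven: COL6A3 was at 75.1 and 8.49 (-3.15), COL6A1 at 129.8 and 161 and COL6A2 at 259.8 and 276. The 9 matrix metalloproteinases and TIMPs had a median of 0.12, which became -0.147 with an FPKM of at least 5, and 1 was at least 2-fold higher and 1 lower. Among them MMP1, the interstitial collagenase, was at 7.12 and 47.1, TIMP1 at 412 and 608 and TIMP2 at 102 and 36.9. Of 5 cadherins CDH6 (18.4 and 3.10), CDH4 (3.68 and 1) and CDH24 (6.78 and 2.74) were at least 2-fold lower, and CDH2, N-cadherin, and CDH13 each had a log2 ratio of 0.11, so that the median of -1.31 became 0.109 with an FPKM of at least 5.

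Cholesterol genes were lower. All 19 enzymes that passed the filter, from acetyl-CoA to cholesterol, lay below 0, 12 of them by at least 2-fold, with a median of -1.08 against -0.18 for all genes. MVK had the lowest ratio of the list, FDPS, which makes farnesyl diphosphate, was at 186 and 94.5, and FDFT1, squalene synthase, at 109 and 27.3. Of 7 regulators and uptake genes 3 lay above 0 and 1 was at least 2-fold lower. SREBF2, which encodes SREBP2, was at 70.9 and 10.4 (-2.76), whereas SCAP (24.9 and 27.8) and INSIG1 (56.8 and 50.7) stayed within 1.5-fold.

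The ATF4 arm and the chaperones of the endoplasmic reticulum separated. In the ATF4 arm 8 of 19 genes were at least 2-fold lower and 2 at least 2-fold higher (median -0.87), and among 16 chaperones and related genes none was at least 2-fold lower and 1 at least 2-fold higher (median 0.21). ATF4 itself was at 643 and 326. The 3 enzymes that make serine from a glycolytic intermediate were PHGDH (380.1 and 44.4), PSAT1 (126 and 16.3) and PSPH (32.8 and 8), and their summed FPKM went from 539 to 68.7. ASNS, asparagine synthetase, was at 121 and 16.8, CHAC1, a glutathione-degrading enzyme, at 90.5 and 20.2, and DDIT4 (REDD1), an inhibitor of mTORC1, at 680.4 and 189. The amino acid transporters SLC7A5 (143 and 45.5) and SLC7A11 (6.94 and 2.45) were on the same side. On the other side stood PPP1R15A (GADD34), a phosphatase subunit, at 46.2 and 129.9, and ATF3 at 3.32 and 7.71. Among the chaperones HSPA5 (BiP) was at 118 and 237, HSP90B1 at 213 and 204 and PDIA6 at 149.96 and 79.9.

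Cytosolic aminoacyl-tRNA synthetases, which load tRNAs with amino acids, had a median of -0.53 over 20 genes, 3 of them at least 2-fold lower and none higher. This share of 15% is not far from the 10.4% of all genes. AARS was at 139 and 51.5, YARS at 114 and 52.1 and EPRS at 45.3 and 21.1. Both chains of the phenylalanine enzyme, FARSA (139.97 and 213) and FARSB (16.9 and 20.3), were above 0.

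Mitosis genes were lower almost throughout. Of 40 genes 39 lay below 0, 17 were at least 2-fold lower and none was 2-fold higher, with a median of -0.95 against -0.18 for all genes. CCNB1, cyclin B1, was at 108 and 51.1, CCNB2 at 39.6 and 13.9, CENPA, the centromeric histone, at 12.997 and 3.73 and KIF20A, a kinesin of cytokinesis, at 18.4 and 4.52 (-2.02, the lowest). MKI67, the proliferation antigen Ki-67, was at 16.2 and 6.71. The abundant PTTG1, securin, was at 307 and 161 and UBE2C at 186 and 153. ESPL1, separase, was the gene above 0, at 5.30 and 7.44. The kinesin family, which shares members with this list, had a median of -0.80 and 8 of 25 genes at least 2-fold lower.

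DNA replication genes differed by less, with a median of -0.47 over 41 genes against -0.18 for all genes, 4 at least 2-fold lower and none higher. The share of 9.76% at least 2-fold lower was near the 10.4% of all genes, while 34 of the 41 lay below 0. CDT1, a licensing factor, was at 28.7 and 12.9, MCM6 of the replicative helicase at 18.1 and 8.53, PCNA, the polymerase clamp, at 87.1 and 56.5 and POLD2 at 212 and 199.5. The highest ratios of the list were those of CCNE1 at 2.22 and 4.07 and CDC6 at 13.2 and 22.1. In a bulk sample fewer cells of a type, here cells in division, and less RNA per cell cannot be told apart.

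**Figure D5:**
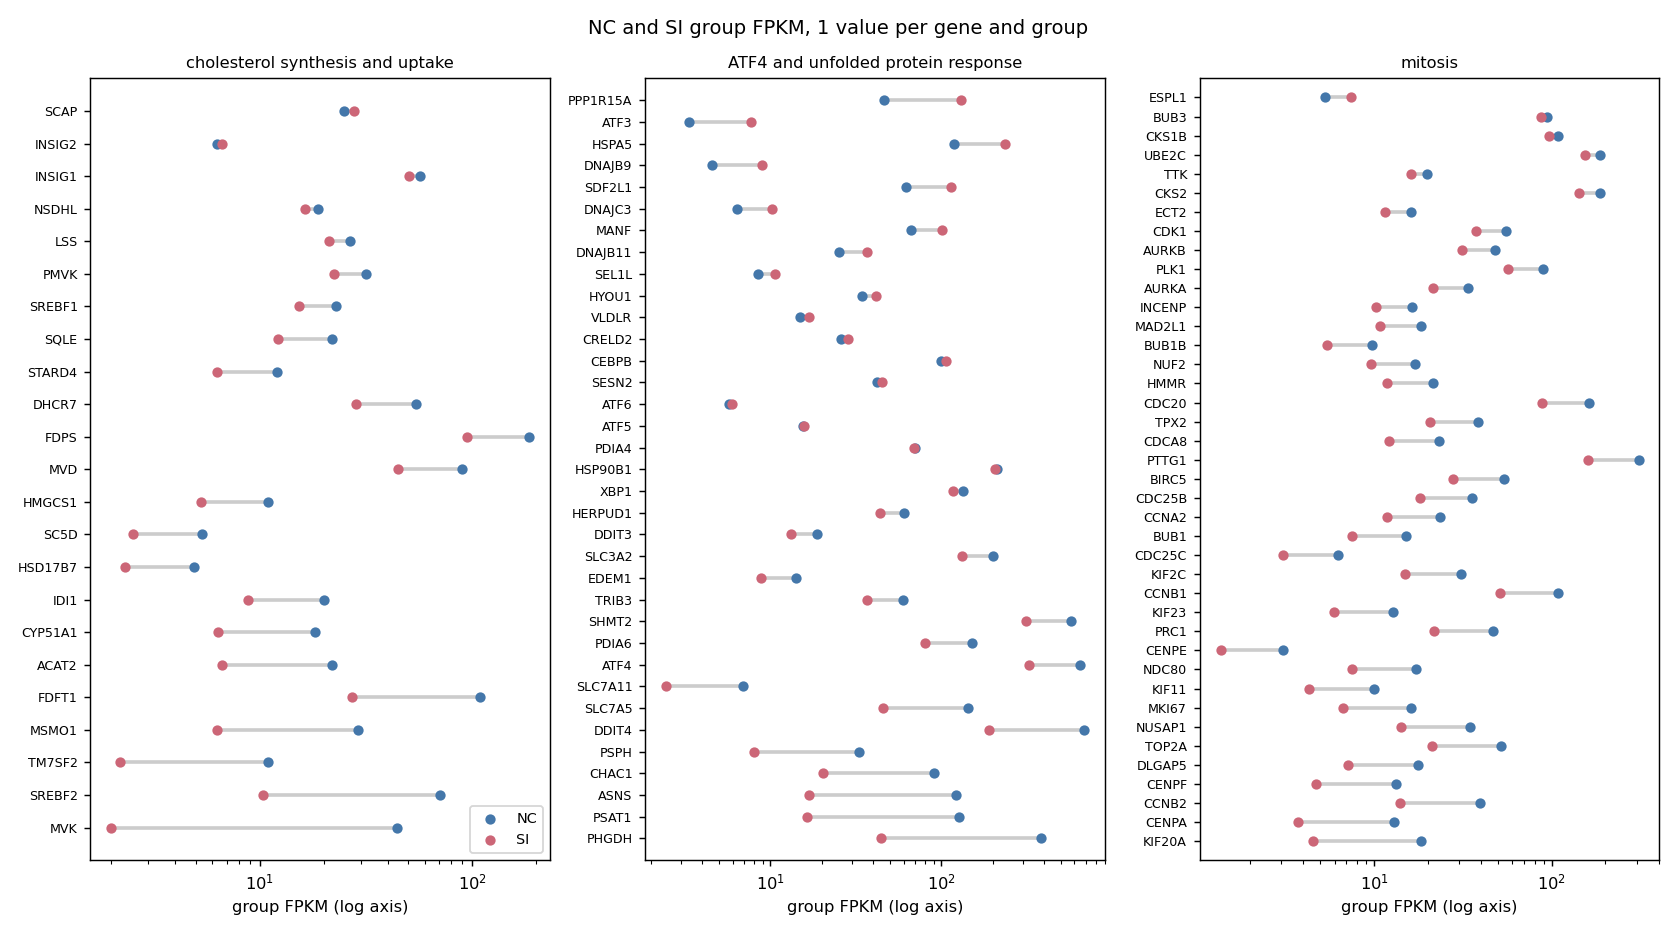
FPKM of each gene of cholesterol synthesis and uptake (left, genes not reported here left out), of the ATF4 and unfolded protein response list (middle) and of mitosis (right) in the NC column (blue) and the SI column (red) on a log axis, ordered by ratio. Red points lie to the left of blue points for 21 of 23, 19 of 35 and 39 of 40 genes.

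Interferon-stimulated genes mostly had a lower value in SI, 17 of the 19 that passed the filter. Of 36 listed genes 19 passed the filter, none was at least 2-fold higher and 5 were at least 2-fold lower, with a median of -0.59 against -0.18 for all genes. The 17 left out included genes above 1 in NC and below 1 in SI, such as IFIT1 (2 and 0.190), OAS2 (1.84 and 0.367) and IFIH1 (1.55 and 0.413). BST2, below 1 in both columns, was higher in SI (0.170 and 0.283). The count and median thus miss members that the filter removed for their low SI value. MX1 was at 8.31 and 2.55, OAS1 at 3.77 and 1.06, and IRF9, a subunit of the interferon-activated complex ISGF3, at 13.1 and 5.30. The most abundant members differed little, IFITM3 at 165 and 148 and ISG15 at 64.2 and 69.5. Genes of MHC class I presentation had a median of -0.24, which became 0.10 after TMM scaling. The immunoproteasome subunit PSMB9 was at 64.6 and 22.5 and B2M at 1489.9 and 984.

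Proteins of the paraspeckle showed no common direction. All 19 passed the filter, 1 was at least 2-fold higher, 1 at least 2-fold lower and the median was -0.03, which became 0.25 after TMM scaling and 0.15 after centring. The core proteins SFPQ (73.6 and 72.1), NONO (177 and 143) and PSPC1 (14.6 and 14.3) stayed within 1.5-fold. TAF15, an RNA-binding protein, was at 130.2 and 11.9 (-3.45) and EWSR1, of the same family, at 154 and 139. RBM14 was at 34.3 and 77.2 (1.17). Of 21 hnRNP genes 18 lay below 0, none past 2-fold (median -0.31), with HNRNPA1 at 1026 and 816. The 13 SR splicing factors had a median of 0.00 and none past 2-fold.

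The large housekeeping complexes stayed close together. None of 82 cytosolic ribosomal protein genes, 78 mitochondrial ribosomal protein genes, 37 complex I subunits and 41 other subunits of the respiratory chain and ATP synthase was past 2-fold in either direction, and their medians were 0.08, 0.01, -0.07 and -0.01. The sign of the last 3 changed under at least 1 other scaling or filter. Their interquartile ranges, 0.302 for cytosolic ribosomal proteins and 0.446 for mitochondrial ones, were narrower than the 0.781 of all genes. Of 37 proteasome subunits 31 lay above 0 (median 0.27), none was at least 2-fold higher and PSMB9 was at least 2-fold lower.

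Several other lists held members on both sides. Of 23 p53 targets 3 were at least 2-fold higher and 1 lower (median -0.28), with CDKN1A, the inhibitor p21, at 108 and 211, MDM2 at 11.5 and 6.58 and GDF15 at 31.6 and 14.7. Of 22 NRF2 targets and ferritin genes 3 were at least 2-fold higher and 1 lower (median 0.01, with a change of sign at other filters), with HMOX1, heme oxygenase, at 28.02 and 109, OSGIN1 at 4.43 and 24.5 and NQO1 at 151 and 128. AKR1C1 was at 5.38 and 37.9, an uncertain value since its copies AKR1C2 and AKR1C3 share long stretches. Of 11 markers of papillary thyroid carcinoma SERPINA1 was at least 2-fold higher and 2 were at least 2-fold lower, among them SDC4 (61.9 and 30.4). Of 18 genes of the epithelial and mesenchymal state FN1 and TGFBI were past 2-fold, both lower, a share of 11.1% beside the 10.4% of all genes. VIM, vimentin, was at 3234 and 2276.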

How the data were processed

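RNA of K1 cells transfected with control or NEAT1_2 siRNA, 3 libraries per group, was sequenced by the authors after oligo(dT) selection and rRNA removal. The methods name TopHat2 and RSEM, and the submitters' processing notes name GRCh38, fastp 0.18.0, Bowtie2 2.2.8, HISAT2 and StringTie 1.3.1. The deposited group table holds an FPKM and an estimated count (expected count) per gene and group. All its FPKM values are whole multiples of 0.01 divided by 3, as means of 3 values with 2 decimals would be. The authors' deposited library tables were used only for the comparison of levels in the opening. Unmapped columns numbered 0.

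The log2 ratio was taken without a pseudocount, for genes with an FPKM of at least 1 in both columns (MXD1 at 1 and 3.07 was just inside, KANSL1L at 1.62 and 0.997 just outside). Called means past 2-fold. With 1 value per group there was no test. Counting errors were computed by the Poisson formula from the deposited counts, which are read as means per group. The Poisson error of the summed counts would be smaller. Positions came from GENCODE 29 and promoters from RefSeq. Python 3.11.15 and edgeR 4.0.16 (TMM) were used, and the ratios were checked on simulated data. Members, lists and motifs were chosen with earlier results of these data known.

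Named were the 12 highest and 12 lowest ratios at a mean FPKM of at least 10, the 10 highest levels, 4 of the genes named by the study, and of each list the 2 most abundant genes, the highest and lowest ratio and all members of lists of up to 15. Further genes were picked once their values were known. Alternatives were other FPKM minimums (0.5, 5), FPKM of at least 1 in either column, a pseudocount of 1, count shares, TMM, centring, at least 100 counts in both columns and fold sizes of 1.5 and 4. Some members of the lists count in the totals and are not reported here by name.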

Additional observations from a re-analysis of the deposited data

How the results depend on the processing

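The median of all genes (-0.18) became 0.0814 with TMM and 0 by centring. The number of genes at least 2-fold higher (312) was 649 with TMM, 504 after centring, 980 at 1.5-fold and 44 at 4-fold, and that of genes at least 2-fold lower (1057) was 388 with an FPKM of at least 5, 685 with a pseudocount of 1, 579 with TMM, 697 after centring, 2560 at 1.5-fold and 119 at 4-fold. The genes called higher made up 22.8% of calls, 52.9% with TMM and 41.97% after centring. The median at a mean FPKM of 100 and over exceeded that under 10 by 0.419, and by 0.245 with an FPKM of at least 5. The cadherin median (-1.31) was 0.109 with an FPKM of at least 5, where fewer genes remained. Of 54 lists and families, 33 kept the sign of their median under all 8 alternatives that recomputed it and 21 did not. Counting limits only low genes: the median standard error over all genes, computed from mean counts and so too wide, was 0.0866, and at most 0.720. No paired analysis was possible because the table has 1 value per group, and for the same reason no replicate could be left out. The other causes of these changes were not tested.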

Other observations

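Among 246 pathways of the annotation that the table itself carries, counted where at least 15 genes passed the filter, the lowest median ratio was that of glycine, serine and threonine metabolism (-1.09, with 11 of 20 genes at least 2-fold lower and 0 higher). Besides PHGDH, PSAT1 and PSPH it held CBS (93.3 and 34.2), which starts transsulfuration, CTH (15.8 and 5.50), the next enzyme, and the cytosolic hydroxymethyltransferase SHMT1 (16.8 and 7.37). The mitochondrial SHMT2 was at 573 and 313. Steroid biosynthesis (-1.08) and the biosynthesis of unsaturated fatty acids (-0.72) followed. The highest medians were those of rheumatoid arthritis (0.42, 13 of 41 genes at least 2-fold higher and 5 lower) and cytokine receptor interaction (0.31, 21 of 76 higher and 9 lower). The latter held the growth factor CSF3 (403 and 2579), the cytokines IL11 (82.0 and 283) and IL24 (41.9 and 159), TNF (5.87 and 16.4) and, on the lower side, the cytokine IL18 (22.1 and 3.76) and VEGFA (136 and 52.9), a growth factor for vessels. Pathways share genes, and these were picked for their place in the order.

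The rule leaves out genes that were low in 1 column. An FPKM of at least 1 was found in NC alone for 707 genes and in SI alone for 126. Among the latter were PI3, the protease inhibitor elafin (0.870 and 33.8), MMP3, stromelysin (0.410 and 22.3), ACOD1, which makes itaconate (0.0933 and 12.9), IL36G, a cytokine of the interleukin-1 family (0.290 and 6.56), and CCL4 (0.323 and 4.48). Among the former were OLFML2B (10.4 and 0.667), THBS2, thrombospondin-2 (9.17 and 0.820), NUPR1, a stress-induced nuclear protein (7.07 and 0.0933), and INHBE, an inhibin chain (3.15 and 0.587). These are examples picked by hand after their values were seen. Some of them, such as ACOD1, are among the largest differences and others are not.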
